A study of Mus musculus with 144 samples.

Results

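The genes of the mitochondrial ribosome were followed in whole blood of mice after a single pharyngeal aspiration of fibres. They were taken as every gene with a symbol of Mrpl or Mrps and a number that had a probe set of its own on the array, with the brightest probe set standing for a gene that had more than 1. This gave 71 genes of the 22180 tested, 43 Mrpl and 28 Mrps symbols, on 80 probe sets. Mrpl30, Mrpl33, Mrpl41, Mrpl43, Mrpl44, Mrpl53 and Mrps6 lay only on probe sets shared with other genes and were left out. The animals were male C57BL/J6 mice, bought at 7 weeks of age, without any genetic change. They received multi-walled carbon nanotubes (MWCNT, stiff tubes of rolled graphene) at 1, 10, 40 or 80 µg, crocidolite asbestos at 120 µg as the positive control, or dispersion medium (DM, the vehicle, which holds glucose, serum albumin and a lung surfactant lipid in buffer). Blood was drawn after 1, 6 or 12 months, which makes 18 groups of 6 to 9 mice. In 5 cases a mouse number stood on a pair of arrays, and their mean was used. The number of arrays limits the precision.

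Mitochondria keep a small genome that encodes core subunits of the respiratory chain, and a ribosome of their own translates it. The large subunit joins amino acids and the small subunit reads the messenger RNA. All of the ribosome's proteins are encoded in the nucleus, made in the cytosol and imported, while its ribosomal RNA comes from the mitochondrial genome. In blood, mature red cells of mammals have lost their mitochondria, whereas platelets, lymphocytes, monocytes and reticulocytes still carry them. By known position, 45 of the 71 genes belong to the large subunit and 25 to the small subunit. Mrps30 and Mrps18a are among the large subunit proteins in spite of their symbols, and Mrps36 acts in the 2-oxoglutarate dehydrogenase complex and not in the ribosome.

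Many nuclear genes of mitochondrial proteins are known targets of nuclear respiratory factor 1 (NRF1) and of the ETS family factor GABP. The bases before a listed start of each gene were therefore read for their motifs. RefSeq promoters of build GRCm38.p6 were found for 62 of the 71 genes, and the 250 bases before the first listed start were searched on both strands. The windows of some genes lay inside the annotated span of the gene and not before it. Mrpl24 (span chr3:87918131-87923450) and Mrpl18 (span chr17:12911345-12917787) are among them. Below are 4 genes that fell along the MWCNT dose at 12 months. Mrpl39 and Mrpl18 are shown because they hold a match, which is in capitals. Mrpl24 and Mrps30 are shown because their falls were the largest called, and they hold neither motif.
Mrpl39, chr16:84735245-84735494, minus strand: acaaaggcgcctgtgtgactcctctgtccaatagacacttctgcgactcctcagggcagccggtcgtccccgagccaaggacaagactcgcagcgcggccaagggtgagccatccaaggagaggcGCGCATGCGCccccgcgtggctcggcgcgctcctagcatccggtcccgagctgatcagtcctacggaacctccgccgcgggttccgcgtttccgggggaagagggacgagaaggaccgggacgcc
Mrpl18, chr17:12916092-12916341, minus strand: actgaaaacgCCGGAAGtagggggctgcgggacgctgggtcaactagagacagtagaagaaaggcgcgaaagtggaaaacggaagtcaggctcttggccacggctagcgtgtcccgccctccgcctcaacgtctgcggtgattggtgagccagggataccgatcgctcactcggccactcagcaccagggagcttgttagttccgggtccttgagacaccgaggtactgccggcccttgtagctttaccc
Mrpl24, chr3:87919294-87919543, plus strand: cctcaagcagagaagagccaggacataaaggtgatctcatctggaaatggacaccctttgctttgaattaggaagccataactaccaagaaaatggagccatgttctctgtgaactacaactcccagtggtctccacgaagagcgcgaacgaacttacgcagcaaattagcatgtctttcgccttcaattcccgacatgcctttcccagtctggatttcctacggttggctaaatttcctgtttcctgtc
Mrps30, chr13:118387253-118387502, minus strand: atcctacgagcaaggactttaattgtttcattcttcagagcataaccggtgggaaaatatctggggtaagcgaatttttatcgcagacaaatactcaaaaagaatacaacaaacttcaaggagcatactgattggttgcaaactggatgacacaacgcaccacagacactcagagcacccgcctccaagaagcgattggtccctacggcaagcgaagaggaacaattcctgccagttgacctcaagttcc

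The capitals in Mrpl39, a large subunit protein without a bacterial counterpart, are the NRF1 core motif of 10 bases. The same motif was found before Mrpl32 and Mrpl9. In all 3 of 62 genes held it (4.84%), against 0.781% of 27025 promoters. The capitals in Mrpl18, which binds ribosomal RNA in the large subunit of bacteria, are the ETS motif CCGGAAG, found before 15 of the 62 genes (24.2%) and 7.05% of all promoters. A total of 8 motifs were counted in the same search. The palindrome TGCGCA stood before 25.8% of the genes and 6.66% of all promoters, and the SP motif GGGGCGGGG before 19.4% and 10.5%. The YY1 motif stood before 1.61% of the genes and 0.218% of all promoters. The CCAAT box was found at 35.5% and 34.5%, the E box CACGTG at 8.06% and 6.05%, and the TATA box TATAAA at 6.45% and 12.97%. Among the 17491 promoters of protein coding genes alone, the NRF1 motif stood at 1.06%, ETS at 9.12%, TGCGCA at 8.28% and SP at 14.1%. The YY1 motif stood there at 0.257%, the CCAAT box at 36.3%, the E box at 6.64% and the TATA box at 12.4%. The median GC content was 58.4% for the genes' promoters, 55.2% for protein coding genes and 52% for all. The shares were not adjusted for it. Of the 18 genes with a promoter that were called in either of the main 12-month comparisons, 5 held the ETS motif, against 10 of the other 44. These matches are descriptions of the letters and were not tested for binding.

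Levels are log2 values. Over all mice the 71 genes averaged between 0.80 and 5.12 with a median of 2.56, against a median of 1.58 for all 23521 probe sets tested. As a mark of background, 1108 probe sets of olfactory receptors had a 90th percentile of 1.51, and 62 of the 71 lay above it. The brightest was Mrpl32, a large subunit protein that a mitochondrial protease trims before assembly, at 5.12. It also varied most, with an SD within groups of 0.77 against a median of 0.42 for the 71. Next came Mrpl58, a peptidyl-tRNA hydrolase built into the large subunit, at 4.80, Mrpl24 at 4.76, Mrpl10, which anchors the stalk that recruits translation factors in bacteria, at 4.58, and Mrps15 of the small subunit at 4.52. The dimmest were Mrpl28 at 0.80, Mrps36 at 0.91, Mrps14 at 1.10, Mrpl27 at 1.18 and Mrpl14 at 1.33, all under the olfactory receptor level. Probe sets differ in their sequence, so these levels do not rank the transcripts. The 3 relatives of the bacterial protein S18 were unlike each other in signal, with Mrps18b at 3.36, Mrps18a at 1.97 and Mrps18c at 1.34.

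Across the 18 groups many of the genes shared 1 feature, a high level in the DM mice of 12 months. That group was the highest of the 18 for 28 of the 71 genes. Crocidolite mice of 12 months were the lowest for 15 genes, and 10 µg MWCNT mice of 12 months for 11. The same counts were not made over all probe sets, so they are not shown to be particular to the 71 genes.

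**Figure D1:**
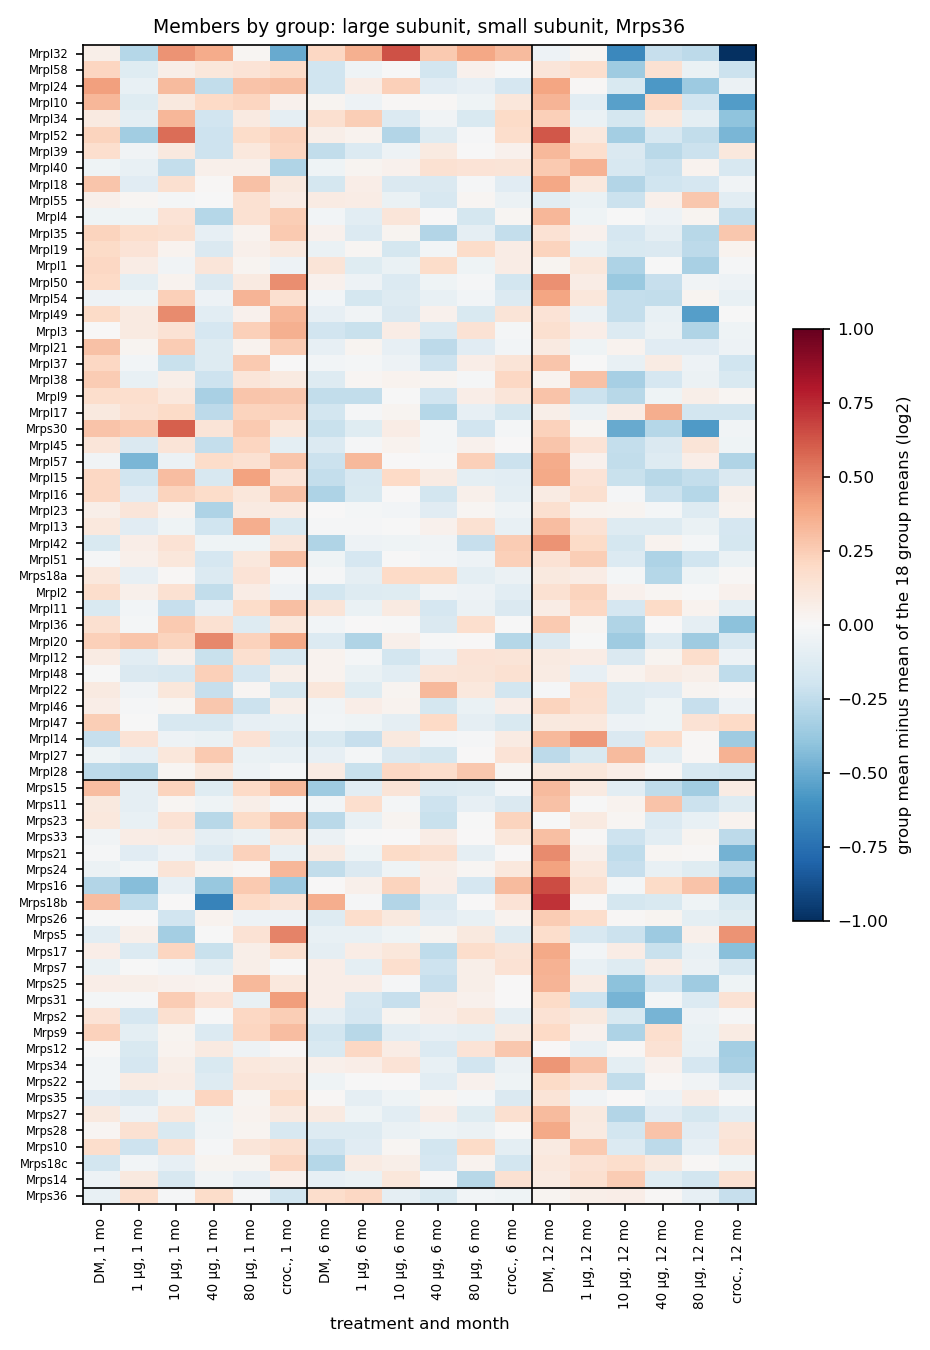
Group mean of each gene minus the mean of its 18 group means, on the log2 scale, with genes ordered by subunit and level and with columns ordered by month and treatment (croc. is crocidolite, mo is month). The column of DM at 12 months is mostly red, with 28 of 71 genes at their highest group, and the crocidolite column of 12 months holds the lowest group of 15 genes; the colour scale ends at 1 in both directions.

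The mean over the 71 genes in each mouse gives the same picture without a test, since it is a summary over chosen genes. Crocidolite mice of 12 months averaged 2.59 ± 0.22 (SD, n = 8), 80 µg mice 2.60 ± 0.14 (n = 8), 40 µg mice 2.64 ± 0.27 (n = 7), 10 µg mice 2.55 ± 0.13 (n = 8) and 1 µg mice 2.77 ± 0.25 (n = 9). DM mice of 12 months averaged 2.92 ± 0.16 (n = 8), the highest of the 18 groups. The groups overlapped, with a highest crocidolite mouse at 3.02 and a lowest DM mouse at 2.68. DM mice averaged 2.64 ± 0.17 (n = 8) at 6 months and 2.78 ± 0.16 (n = 7) at 1 month, so the DM mice of 12 months also lay above those of the earlier months. Over all probe sets the mean at 12 months was 2.36 in DM mice and 2.31 in crocidolite mice. It was 2.35, 2.29, 2.32 and 2.31 at 1, 10, 40 and 80 µg, and the 2.29 was the lowest of the 18 groups. Whether the lower means are particular to the 71 genes was not tested.

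**Figure D2:**
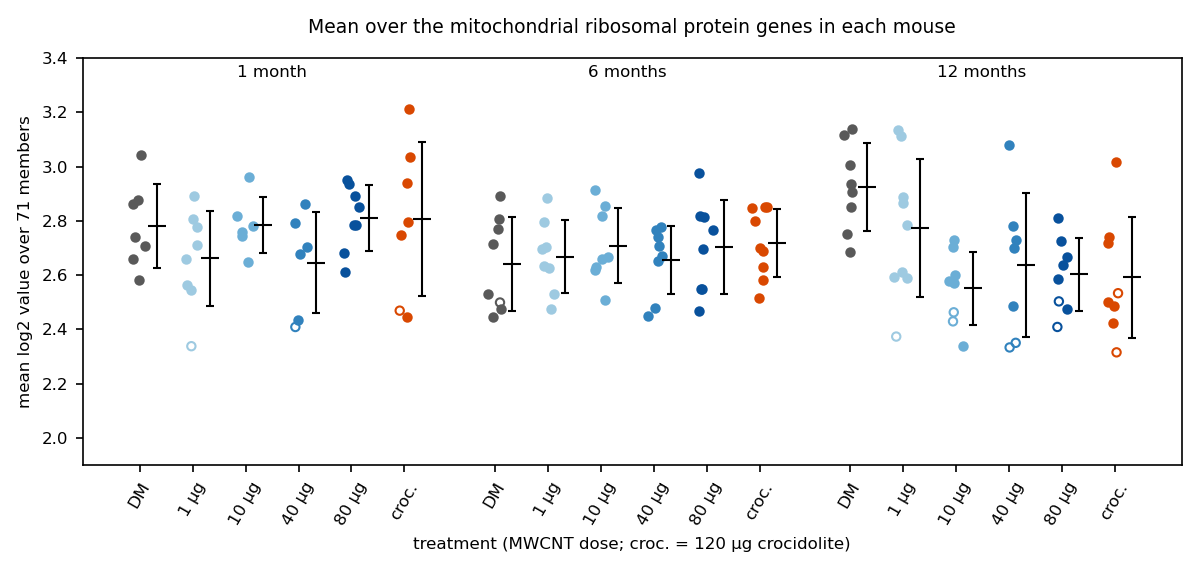
Mean log2 value over the 71 genes in each mouse (points) by treatment and month, with the group mean and SD beside them; open points are mice whose array had a median correlation under 0.85 with the other arrays. DM at 12 months has the highest mean, 2.92, and 10 µg MWCNT at 12 months the lowest, 2.55.

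The genes varied together from mouse to mouse. Within groups the mean over the 71 genes had an SD of 0.18, which is 3.34 times the 0.053 that would be seen if they varied independently. The mean over all probe sets varied too, with SDs between 0.032 and 0.064 in the 18 groups. Whether moving together is particular to the 71 genes was not tested. Array quality moved with the mean over the 71 genes. All of the 13 mice with an array of low correlation lay below their own group's mean over the 71 genes, by 0.058 to 0.40. Of these 13, 9 were exposed mice of 12 months and 0 were DM mice of 12 months, and the part of array quality in the 12-month results is given beside them as values with and without these arrays.

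The first comparison asked what crocidolite did at 12 months. At an adjusted p under 0.10, 10 of the 71 genes were lower after crocidolite and 0 higher, 9 of the 10 by at least 1.5-fold. Of all probe sets tested, 2.48% were called in either direction and 2.02% lower in this comparison, and 3.52% of those above the olfactory receptor level, against 14.1% of the 71 genes. The median change of the 71 was -0.27, and 63 were below 0, while the median of all probe sets was -0.07. With DM mice of all 3 months as the control, an alternative chosen after seeing the data, the median of the 71 was -0.16 and 6 were called. In bulk blood, fewer cells of a type and less RNA per cell cannot be told apart. The 10 genes were 6 of the 25 small subunit genes and 4 of the 45 large subunit genes.

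Mrps16, a small subunit protein with a bacterial counterpart, ranged between 2.56 and 3.395 with a median of 2.90 in crocidolite mice, against 3.52 to 4.57 with a median of 4.14 in DM mice. The groups did not overlap, which held for 1 of the 71 genes and for 0.123% of all probe sets. It fell by 1.12 ± 0.29 on the log2 scale (adjusted p = 0.0305, exact 2-sided permutation p = 0.000155). Mrps21, a small subunit protein that has a counterpart in bacteria, ranged between 2.43 and 3.73 with a median of 3.15 in crocidolite mice, against 3.45 to 4.68 with a median of 4.19 in DM mice. Here the groups overlapped at the edges, and the gene fell by 0.94 ± 0.20 with the smallest adjusted p of the 71 (0.00831, exact permutation p = 0.00124).

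Mrps34, which the small subunit needs to be stable, had a lowest, median and highest value of 1.55, 2.02 and 2.31 in crocidolite mice, against 2.01, 2.88 and 3.51 in DM mice. It fell by 0.77 ± 0.19 (adjusted p = 0.0262). Mrps18b had 2.59, 3.20 and 4.01 in crocidolite mice, against 3.07, 4.02 and 4.59 in DM mice, and fell by 0.88 ± 0.26 (adjusted p = 0.0608). Its 3.07 was that of 1 DM mouse that stood apart from the other DM mice. Of the other small subunit genes, Mrps24, the relative of the bacterial S3 protein at the messenger RNA entry, fell by 0.67 ± 0.20 (adjusted p = 0.0712) and Mrps33 by 0.56 ± 0.18 (adjusted p = 0.0888). Mrps17 just missed the threshold with a change of -0.80 ± 0.26 (adjusted p = 0.101). Its second, dimmer probe set stood at 0.20 ± 0.17 in the other direction, without passing (adjusted p = 0.649).

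In the large subunit, Mrpl10 had a lowest, median and highest value of 3.23, 3.85 and 5.11 in crocidolite mice, against 4.08, 5.00 and 5.79 in DM mice, with a wide overlap. It fell by 0.90 ± 0.24 (adjusted p = 0.0386), but the second, dimmer probe set of Mrpl10 stood at 0.27 ± 0.19 in the other direction without passing (adjusted p = 0.528). Mrpl52 had 2.11, 4.12 and 5.09 in crocidolite mice, against 4.03, 5.04 and 5.47 in DM mice. It fell by 1.07 ± 0.34 (adjusted p = 0.0888). Mrpl57 fell by 0.68 ± 0.20 (adjusted p = 0.0596) and Mrpl36, the relative of a very small bacterial ribosomal protein, by 0.67 ± 0.20 (adjusted p = 0.0640). In crocidolite mice Mrpl36 averaged 1.39, under the olfactory receptor level of 1.51. Mrpl32, the brightest gene, changed by -1.05 ± 0.37 and did not pass (adjusted p = 0.141). Of the 4 called genes that have a second probe set, Mrps16, Mrps18b and Mrpl36 kept the sign on it, and none of these second probe sets passed on its own.

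**Figure D3:**
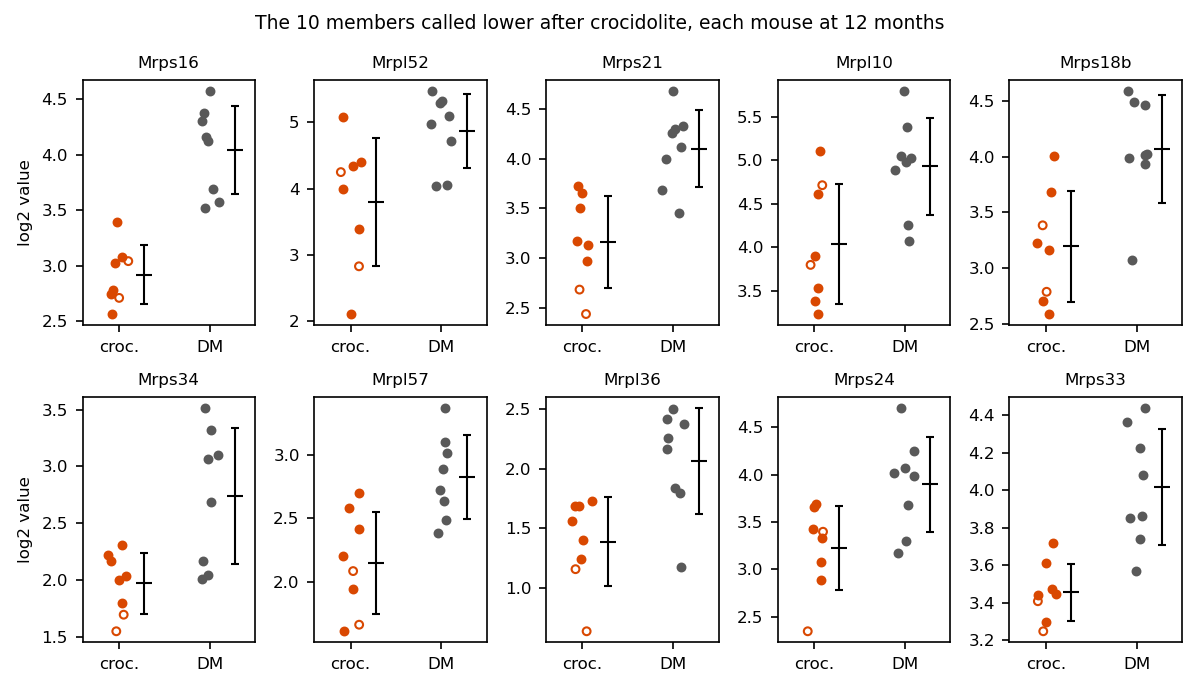
Log2 value of the 10 genes called lower after crocidolite in each mouse of 12 months, crocidolite left and DM right, with mean and SD; open points are mice with an array of low correlation, and each panel has its own axis. Mrps16 is the gene whose groups do not overlap, with a highest crocidolite mouse at 3.395 and a lowest DM mouse at 3.52.

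The calls changed with the mice and arrays included. Array spread is the interquartile range, over probe sets, of how far an array lay from the medians. It averaged 0.643 ± 0.146 in crocidolite mice and 0.573 ± 0.031 in DM mice (SD, n = 8 each), and 2 crocidolite mice and 0 DM mice had an array of low correlation. Without the arrays of low correlation 2 genes passed, Mrps16 and Mrpl10, and 3 did once the spread entered the fit, Mrps16, Mrps21 and Mrps34. Mrps16 passed in both, but not without crocidolite replicate 1 or with DM of all 3 months, where Mrps21 passed. The median change of the 71 genes was -0.20 without those arrays and -0.23 with spread in the fit. Leaving out 1 mouse left between 1 and 15 genes, with Mrps21 as the 1 gene without crocidolite replicate 1. Within array numbers 1 to 96, with 6 crocidolite and 7 DM mice, the median change was -0.37, and within the later arrays, with 2 of each, it was -0.08.

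The second comparison asked whether the genes moved with the MWCNT dose. At 12 months 12 of the 71 fell along the dose and 0 rose. The trend was a slope on log2(dose + 1), given as the fitted difference between 80 µg and DM. Of all probe sets 5.07% were called lower in the trend and 9.53% of those above the olfactory receptor level, against 16.9% of the 71 genes. Of the 12, 7 belong to the large and 5 to the small subunit, and 6 fell by at least 1.5-fold. The median change of the 71 was -0.27, with 65 below 0, against -0.02 for all probe sets.

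Mrpl24, a large subunit protein with a bacterial counterpart, showed the largest of these falls. Its median was 5.23 in DM mice (range 4.24 to 5.92), 4.65 at 1 µg (3.96 to 5.65), 4.48 at 10 µg (3.93 to 5.31), 4.04 at 40 µg (3.30 to 5.14) and 4.51 at 80 µg (3.56 to 4.74). The doses overlapped with each other and with DM, and the fall was 0.79 ± 0.21 (adjusted p = 0.0262). Mrps30, in the large subunit, had medians of 2.64 in DM mice (2.16 to 3.98), 2.38 at 1 µg (1.897 to 3.59), 2.05 at 10 µg (1.49 to 2.44), 2.19 at 40 µg (1.71 to 2.93) and 2.06 at 80 µg (1.38 to 2.62). It fell by 0.70 ± 0.20 (adjusted p = 0.0442), and its ranges at 10, 40 and 80 µg overlapped.

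The same shape, a drop reached by 10 µg with little order among the higher doses, was seen in several others. Mrpl15, a large subunit protein that bacteria have too, averaged 2.80 ± 0.47 in DM mice, 2.56 ± 0.54 at 1 µg, 2.20 ± 0.39 at 10 µg, 2.15 ± 0.63 at 40 µg and 2.19 ± 0.43 at 80 µg, a fall of 0.62 ± 0.19 (adjusted p = 0.0580). Mrps25 of the small subunit averaged 3.332 ± 0.20, 3.08 ± 0.67, 2.58 ± 0.41, 2.80 ± 0.85 and 2.64 ± 0.54 in DM mice and at 1, 10, 40 and 80 µg (adjusted p = 0.0785). Mrps18b was already at 3.36 ± 0.54 at 1 µg, against 4.07 ± 0.48 in DM mice, with 3.17 ± 0.47, 3.20 ± 0.56 and 3.30 ± 0.54 at the 3 higher doses (adjusted p = 0.0863). Mrps15 was the gene whose group means were ordered throughout, at 4.84 ± 0.38, 4.61 ± 0.43, 4.42 ± 0.39, 4.27 ± 0.74 and 4.17 ± 0.25 in DM mice and at 1, 10, 40 and 80 µg, and it fell by 0.61 ± 0.17 (adjusted p = 0.0354). The order among those means lay within the spread between mice.

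Mrpl39 fell by 0.58 ± 0.16 (adjusted p = 0.0305) and Mrpl18 by 0.54 ± 0.18 (adjusted p = 0.0838), the genes whose promoters are printed above with a match. The other 4 called genes were Mrps34, Mrpl51, Mrps27, a protein with repeats that bind RNA, and Mrpl46, with falls between 0.41 and 0.53. Of these, Mrpl51 and Mrps27 also hold the ETS motif, 90 and 48 bases before their listed starts. Mrpl46 averaged 1.47 over all mice, under the olfactory receptor level of 1.51, so its call rests on low signal. Mrps34 and Mrps18b were called in both the trend and the crocidolite comparison, which share the same 8 DM mice.

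**Figure D4:**
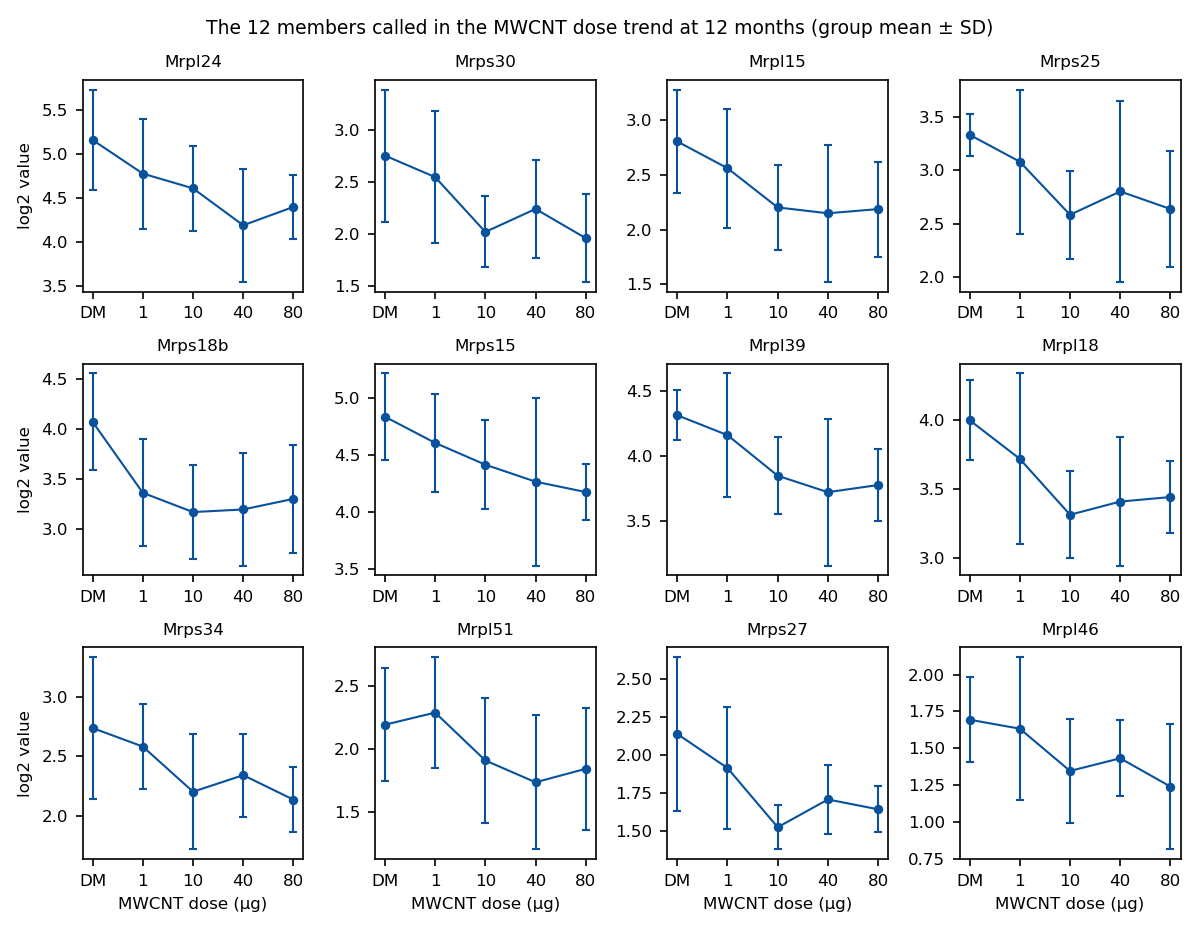
Group mean and SD of the log2 value of the 12 genes called in the MWCNT dose trend at 12 months, against the dose in µg with DM at the left; each panel has its own axis. Mrps15 averages 4.84 in DM mice and 4.17 at 80 µg, and most genes differ little among 10, 40 and 80 µg.

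**Figure D5:**
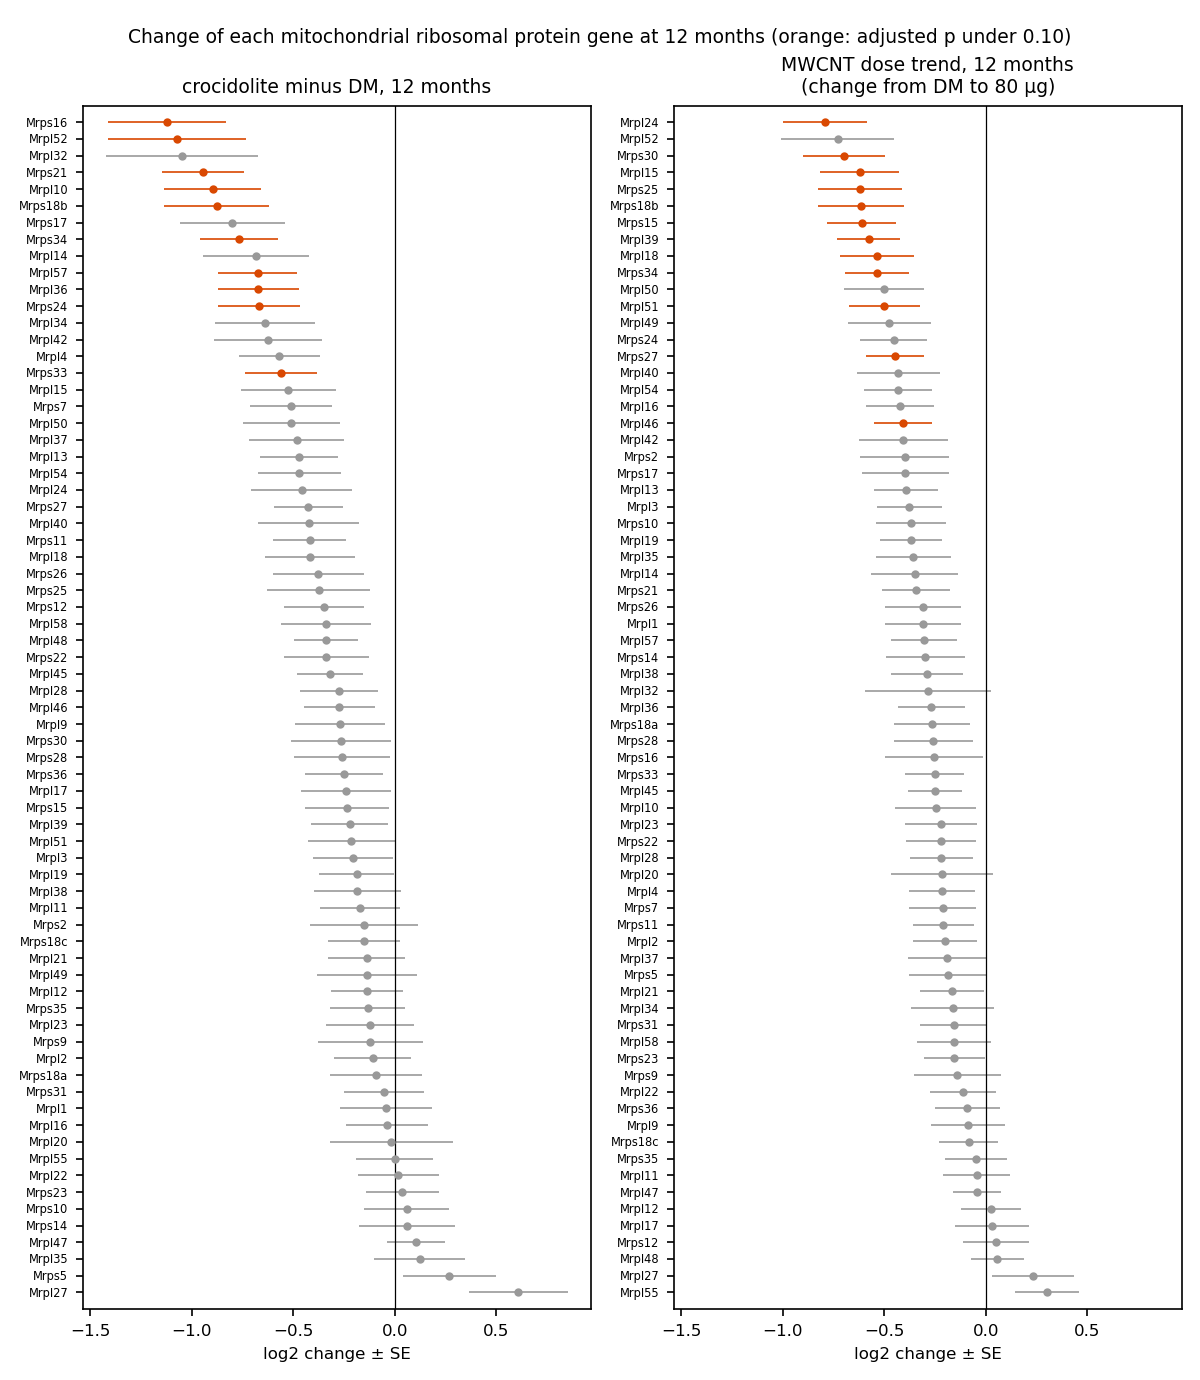
Log2 change and standard error of each of the 71 genes at 12 months, for crocidolite minus DM (left) and the MWCNT dose trend (right), each panel sorted by change; orange marks an adjusted p under 0.10. Points lie left of 0 for 63 genes with crocidolite and 65 in the trend, with 10 and 12 in orange.

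The trend calls changed with the fit as well. With array spread in the fit 0 genes passed, with the dose in µg in place of its log 0 passed, and without the arrays of low correlation 3 did, Mrpl24, Mrps30 and Mrps34. The direction held, with a median change of -0.23 with spread and -0.25 without those arrays, and it was -0.16 with DM mice of all 3 months as the control. Leaving out 1 mouse left between 4 and 20 genes, with 4 without DM replicate 3 and 20 without 1 µg replicate 1.

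At 12 months no single dose gave a call in the fit of all groups. Limma called 0 of the 71 at 1, 10, 40 and 80 µg, while 5, 32, 23 and 23 had an unadjusted p under 0.05, and the study methods' analysis of variance called 1 at 80 µg and 0 at the others. At 10 µg the calls depended on the fit, with 10 genes lower when the array number entered as a block and 11 with the first array of each repeated mouse. In these comparisons 0%, 0.179%, 0.0425% and 1.22% of all probe sets were called, and 0%, 0.132%, 0.0298% and 0.986% called lower. Among probe sets above the olfactory receptor level the shares called lower were 0%, 0.244%, 0.057% and 1.81%. All of these shares are at the adjusted threshold. Here and below, counts at an unadjusted p have no matching share of all probe sets beside them. They therefore do not show that the 71 genes changed more than other genes. The genes with the smallest p, none passing, were Mrps18b at 1 µg (-0.71 ± 0.25, adjusted p = 1.00), Mrpl10 at 10 µg (-0.88 ± 0.24, adjusted p = 0.110), Mrpl24 at 40 µg (-0.97 ± 0.26, adjusted p = 0.148) and Mrps15 at 80 µg (-0.66 ± 0.21, adjusted p = 0.108). The median change of the 71 was -0.16, -0.38, -0.24 and -0.33 at the 4 doses. Without the arrays of low correlation these medians were -0.10, -0.34, -0.14 and -0.28. With DM mice of all 3 months as the control they were -0.22, -0.13 and -0.17 at 10, 40 and 80 µg.

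At 1 and 6 months no gene passed in any exposed group or in the trend, by limma, and the methods' analysis of variance called 0 in each of those comparisons with DM. At an unadjusted p under 0.05 between 0 and 7 of the 71 did in each of the 10 comparisons with DM, and at most 0.0085% of all probe sets, or 0.0163% of those above the olfactory receptor level, were called there. The medians of the 71 genes lay between -0.14 and 0.09. The smallest p of these months belonged to Mrps18b at 40 µg and 1 month, which stood at -0.98 ± 0.29 (adjusted p = 0.280, not passing). Mrps23 with crocidolite at 6 months stood at 0.49 ± 0.18 (adjusted p = 1.00, not passing). The smallest p of the other comparisons at 1 month belonged to Mrps18b at 1 µg (-0.56), Mrpl47 at 10 µg (-0.41) and 80 µg (-0.33) and Mrps5 with crocidolite (0.60), and at 6 months to Mrpl57 at 1 µg (0.54) and 80 µg (0.45) and Mrps18b at 10 µg (-0.66) and 40 µg (-0.50), none passing. Whether the effect differed between months was tested directly, and 0 genes passed for 80 µg MWCNT or for crocidolite. An unadjusted p under 0.05 was seen for 14 and 15 genes, with 0% and 0.0553% of all probe sets called. A difference between 12 months and the earlier months was therefore not shown for any of the 71 genes.

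Crocidolite and 80 µg MWCNT did not differ in any of the 71 genes at the threshold at 1, 6 or 12 months, although masses and materials differ. At 12 months 9 of the 71 had an unadjusted p below 0.05, the median difference was -0.02, and 0.302% of all probe sets were called. The genes called only in one of the comparisons with DM were thus not shown to differ between the fibres.

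The third comparison was over time within a treatment. In DM mice 12 against 1 months gave 0 calls, with a median change of 0.15, 9 genes at an unadjusted p under 0.05 and 1.51% of all probe sets called. Against 6 months the DM mice of 12 months gave 0 calls with a median of 0.30, 63 of the 71 above 0, 17 at an unadjusted p under 0.05 and 0.068% of all probe sets called. Mrps15 fell in DM mice of 6 months, at 4.16 ± 0.37 (n = 8), against 4.83 ± 0.45 (n = 7) in those of 1 month (adjusted p = 0.0747), with 3.46% of all probe sets called lower.

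In 80 µg mice 7 of the 71 fell between 1 and 12 months. Mrps30 averaged 1.96 ± 0.42 at 12 months, against 2.79 ± 0.43 at 1 month (SD, n = 8 each, adjusted p = 0.0166). The others were Mrps25, Mrpl24, Mrpl15, Mrpl49, Mrps15 and Mrpl3, with falls between 0.54 and 0.69. This was 9.86% of the genes, against 13.3% of all probe sets called lower, so the share was below the background. In 10 µg mice Mrps30 fell by 1.10 ± 0.27 (adjusted p = 0.0249) and Mrps31 by 0.72 ± 0.21 (adjusted p = 0.0552), 2 of 71 against 4.64% of all probe sets. With crocidolite 0 of the 71 passed between 12 and 1 months, where the median was -0.24, 9 had an unadjusted p under 0.05 and 0.00425% of all probe sets were called. At 1 and 40 µg MWCNT 0 passed either, with 5 and 1 at an unadjusted p under 0.05 and 0.0255% and 0.00425% of all probe sets called.

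Other genes of mitochondrial gene expression were read from the same fit. They were 73 measured genes of translation factors, aminoacyl-tRNA synthetases, ribosome assembly, mitochondrial transcription and their nuclear regulators. The 73 also held 3 mitochondrial ribosomal proteins under other symbols. Of the 73, 6 fell with crocidolite at 12 months and 0 rose, with a median change of -0.19. These 8.22% compare with 2.02% of all probe sets and 3.52% of those above the olfactory receptor level. Taco1, an activator of cytochrome oxidase translation, fell by 1.01 ± 0.26 (adjusted p = 0.0305), Hsd17b10, a part of mitochondrial RNase P, by 0.70 ± 0.19 (adjusted p = 0.0386), Ptcd3, a small subunit protein under another symbol, by 1.44 ± 0.42 (adjusted p = 0.0621) and Tsfm, an elongation factor, by 0.65 ± 0.20 (adjusted p = 0.0842). In the trend 6 of the 73 fell, with a median change of -0.22. This share of 8.22% compares with 5.07% of all probe sets and 9.53% of those above the olfactory receptor level. The 6 included Eral1, a chaperone of the small ribosomal RNA (-0.92 ± 0.20, adjusted p = 0.0137), Supv3l1, an RNA helicase (-0.67 ± 0.17, adjusted p = 0.0229), Mettl17, an assembly factor of the small subunit (-0.60 ± 0.17, adjusted p = 0.0379), and Oxa1l, which inserts new proteins into the inner membrane (-0.64 ± 0.19, adjusted p = 0.0477).

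Among 68 measured genes of the cytosolic ribosome, 16 fell with crocidolite with a median change of -0.35, against 10 of the 71 genes. Of all probe sets 2.02% were called lower there, and 3.52% of those above the olfactory receptor level. In the trend 14 of the 68 fell and 1 rose with a median of -0.26, against 12 of the 71 genes falling. There 5.07% of all probe sets were called lower, and 9.53% of those above the olfactory receptor level. The 10 measured genes of the mitochondrial genome, which the mitochondrial ribosome translates or contains, had a median of 0.30 with crocidolite and -0.07 in the trend, and 0 passed in either. No test was run between these lists.

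Blood cell markers moved in the same comparisons, and their part in the results was not tested. With crocidolite 3 of 9 platelet genes fell (Gp9, Pf4 and Treml1), 2 of 4 measured erythroid genes (Ermap and Tspo2) and 1 of 10 NK genes (Nkg7). In this comparison 2.02% of all probe sets were called lower, and 3.52% of those above the olfactory receptor level. The mean of the platelet list ranged between 8.36 and 10.1 in crocidolite mice, against 9.74 to 10.1 in DM mice, and that of the erythroid list between 6.22 and 8.07, against 7.16 to 8.05. The monocyte list was higher in crocidolite mice of 12 months, at 5.58 ± 0.36 against 5.34 ± 0.30 in DM mice (SD, n = 8 each). The neutrophil, B cell and T cell lists were lower, at 5.08 ± 0.56, 6.61 ± 0.42 and 5.05 ± 0.54. The DM mice had 5.39 ± 0.52, 6.86 ± 0.37 and 5.39 ± 0.28 on these lists. In the trend 9 of 11 B cell genes and 6 of 11 T cell genes fell. There 5.07% of all probe sets were called lower, and 9.53% of those above the olfactory receptor level. The B cell list averaged 6.04 ± 0.32 at 80 µg and 6.86 ± 0.37 in DM mice, and the T cell list 4.71 ± 0.29 and 5.39 ± 0.28 (SD, n = 8 each). The neutrophil list was lower at 80 µg too, at 4.82 ± 0.25 against 5.39 ± 0.52 in DM mice. So were the means of the monocyte, NK, platelet and eosinophil and basophil lists. The erythroid list was level, at 7.55 ± 0.53 at 80 µg and 7.54 ± 0.26 in DM mice. Lung epithelium markers were near background, with 7 of 10 at or under the olfactory receptor level.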

How the data were processed

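Whole-blood RNA was hybridized by the authors to Affymetrix Mouse Gene ST 2.1 arrays, and the deposited values are log2 expression values that the authors computed with RMA in oligo, per the labels and methods (the submitters' processing notes name RMA, oligo and limma without versions). Every per-sample column was used. Groups came from the labels alone, and 2 labels spelled MWNCT were read as MWCNT. Where a mouse number stood on 2 arrays (5 cases), the mean of both was used as 1 mouse. In deviations from the group mean, the 2 arrays correlated above the median of the other mice of the group in all 5 cases and below the highest of them in all 5, so whether they share a mouse was not settled.

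Of 41345 probe sets, 23521 had 1 gene symbol, 1820 several and 16004 none, and symbols were updated through gene IDs where found (23328 of 23521, assembly GRCm38.p6). The 13 probe sets with an Mrpl or Mrps symbol among several were left out. All 18 group means were fitted together in limma 3.58.1 (R 4.3.3, lmFit and eBayes), dim probe sets kept, with Benjamini-Hochberg adjustment over all 23521 probe sets, separately for each comparison. A gene was called at an adjusted p under 0.10, and changes carry the standard error of the fit. The fit was tested on simulated data. Permutation tests were exact and 2-sided. Nothing but separate mouse numbers says that replicates are separate animals.

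The members and lists were chosen with earlier results of these data known. Named genes were, in a comparison with 5 or more called, up to 8 largest falls and 8 largest rises, with 1 to 4 called all of them, and with 0 called the smallest p, plus the 5 brightest and dimmest genes, Mrps18a, Mrps18b, Mrps18c, Mrps30 and Mrps36, and of the lists up to 4 called by smallest p. Mrps17 and the called genes past the first 8 were named after their values were seen. The 8 promoter motifs were not part of the design, and were chosen and counted together once the 12-month calls were known. The promoters printed were chosen after the matches were seen. Alternatives were another normalization, fitting only the compared groups, leaving out dim probe sets or arrays of low correlation, the array number as a block, array spread, array weights, the first array of repeated mice, the methods' analysis of variance, the dimmest probe set, the dose in µg and leaving out single mice. The comparison with DM of all 3 months, and leaving out mice in the trend, were chosen after seeing the data.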

Additional observations from a re-analysis of the deposited data

Results flagged for a closer look

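Dixon's test was run on the per-mouse mean over the 71 genes in each group and each named gene in the groups it was compared in. It marked 5 of these sets of values, a share close to the 1 in 20 sets that chance alone marks. The 5 marked sets are therefore not shown to be more than chance. The per-mouse mean had none. The mouse with the highest Mrps5 value among DM mice of 1 month, at 4.28, stood apart from the others. So did the lowest Mrps18b value among DM mice of 12 months, at 3.07, the lowest Mrpl24 value at 80 µg and 12 months, at 3.56, the highest Mrps25 value in that group, at 3.85, and the highest Mrps15 value at 10 µg and 12 months, at 5.18.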

How the results depend on the processing

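The count of the 71 genes called was 10 for crocidolite at 12 months and 12 for the trend at 12 months. For crocidolite it was 3 with only the compared groups fitted, 2 without the arrays of low correlation, 3 with array spread, 18 with array weights, 1 by the methods' analysis of variance, 6 with the dimmest probe set and 6 with DM of all 3 months. For the trend it was 2 when the arrays were quantile normalized again, 2 with the compared groups fitted alone, 3 without the arrays of low correlation, 0 with array spread, 6 with array weights and 0 with the dose in µg. Leaving out 1 mouse gave 1 to 15 for crocidolite and 4 to 20 for the trend (here over all 40 mice of its 5 groups). The crocidolite count moved by over 1.5 times without crocidolite replicates 1, 3, 4, 5 and 6 (1, 6, 3, 5 and 6 genes) and DM replicates 3, 4, 5, 6 and 7 (6, 6, 5, 6 and 5). The trend count did so without DM replicates 3, 6 and 7 (4, 6 and 6), 1 µg replicates 1, 5 and 8 (20, 6 and 5), 40 µg replicates 1, 2 and 3 (19, 6 and 5) and 80 µg replicate 3 (7). The median change at 1 µg and 12 months was -0.08 with array spread.

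At 10 µg and 12 months the 0 became 5 with only the compared groups, 6 without dim probe sets, 10 with the array number block, 20 with array weights, 11 with the first array of repeated mice and 8 with DM of all 3 months. At 80 µg the 0 became 3, 5, 1, 3, 1 and 3 in that order, and 1 by the methods' analysis of variance, and leaving out 1 mouse gave 0 to 7 (7 without DM replicate 8 or 80 µg replicate 6). At 40 µg DM of all 3 months gave 1. Crocidolite against 80 µg MWCNT at 12 months gave 2 after quantile normalization and 3 without the arrays of low correlation.

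Over months, DM 12 against 1 gave 1 under quantile normalization, compared groups, dim probe sets left out, low correlation and array spread, and 5 with array weights (0 to 1 leaving out 1 mouse). For 10 µg, 2 became 1 with quantile normalization, 5 with compared groups, 7 without dim probe sets, 0 without low correlation or with array spread, 9 with array weights and 5 with first arrays. For 80 µg, 7 became 1 with quantile normalization, 4 without low correlation and 1 with array spread. DM 6 against 1 gave 0 with quantile normalization, without low correlation and by analysis of variance, and 2 with array spread or weights. DM 12 against 6 gave 1 with array spread and 2 with weights, and the effect of crocidolite by month 1 with weights. In 19 of 31 comparisons the count stayed within 1.5 times under every alternative apart from leaving out a mouse. The reversed values were those of the dimmest probe set, for Mrpl10 0.27 with crocidolite and 0.20 at 10 µg at 12 months, and for Mrpl47 0.25 at 10 µg and 1 month. The causes were not tested. No paired analysis was possible because mouse numbers are not shared between groups. Low signal limits the 9 genes at or under the olfactory receptor level, among them Mrpl46, which was called in the trend.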
